A study of Solanum lycopersicum x Solanum pennellii and Solanum lycopersicum with 21 samples.

Results

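Among the tomato anther transcripts measured here, 49 probe sets without a gene symbol gave a higher signal in 1 introgression line than in the other 3 lines and in the domesticated parent M82. They were chosen from 9129 unnamed probe sets of a table of 10209, after the AFFX control and RPTR reporter probe sets had been set aside. A probe set was kept for a line when the mean of that line lay at least 0.7 log2 above the mean of each other group and each of its arrays lay above all other arrays. This difference from the next highest group mean is called the gap below, and a gap of 0.7 is 1.62-fold. The values that chose the members are therefore descriptions, and no test is given for them.

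The arrays held RNA of anthers collected 1 day before the flowers opened, from greenhouse plants that were all treated alike. The groups were IL-1_1_3 (3 arrays), IL-4_2, IL-7_2 and IL-8_1_1 (4 arrays each) and M82, the control (6 arrays). The titles name the lines in this way, while a second label shortens IL-1_1_3 to IL-1_1 and IL-8_1_1 to IL-8_1. Each of the 4 lines carries a piece of the genome of Solanum pennellii, a wild tomato relative, in the background of M82. They are called hybrids in the series' design text, but whether 1 or both copies of the segment are wild is not stated. Nothing in the labels ties a replicate to a plant of its own, so errors and p-values describe the spread between these arrays, which may be technical.

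An introgression line is made by repeated crossing of a wild species to a crop until a single wild segment is left, and the first digit in the name of each line is the chromosome that holds it. Transcripts that differ between such a line and its parent can come from genes inside the segment or from genes elsewhere that respond to it. An Affymetrix probe set is a group of short probes for one transcript, and its value is a summary of how strongly labelled RNA bound to them. GEO's annotation of the platform, possibly out of date, gave a symbol to 909 of the 10038 probe sets and none to the members, so their genes, functions and chromosome positions were not analysed here. The number after Les or LesAffx in an ID is that of the sequence cluster a probe set was designed on, and the letter S or A before the end tells apart probe sets of opposite orientation.

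Medians of the arrays lay between 9.51 and 9.58, and the values of all probe sets lay between 3.39 and 14.69 log2. Array 2 of IL-7_2 stood apart from its group, with a mean absolute deviation from the group mean of 0.432 log2, against 0.101 to 0.268 in the other arrays. Of the pollen markers on the array, the receptor kinase genes PRK1 and PRK2 and the gene Shy had group means of 11.84 to 14.08. The kinase gene PRK3 had 6.37 to 8.43. Stig1, which the pollen list also held, had 4.23 to 5.40 and was not read as a marker of pollen. The 3 green tissue markers that were measured (CAB4, CAB6A and PsbQ) had group means of 9.92 to 12.01. Their part in the members' values was not tested. In whole anthers, fewer cells of a type and less RNA per cell cannot be told apart.

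The 49 members were spread unevenly over the lines. IL-7_2 held 19 of them, IL-4_2 held 13, IL-8_1_1 held 11 and IL-1_1_3 held 6, which are 0.208, 0.142, 0.12 and 0.0657% of the unnamed probe sets. Turned round, the same rule found probe sets that were lower in 1 line alone, and these were more numerous in each line, with 44, 49, 36 and 28 in the same order (0.482, 0.537, 0.394 and 0.307%). In all, 1.72% of the unnamed probe sets were lower in 1 line alone and 0.537% were higher. Probe sets with a symbol met the rule in 9 cases of 909 (0.99%), 5 in IL-7_2, 1 in IL-4_2, 3 in IL-8_1_1 and 0 in IL-1_1_3 (0.55, 0.11, 0.33 and 0%). These were CS2 in IL-4_2, tXET-B2, PME2.1, MAN2, LOC543836 and LOC544102 in IL-7_2, and cevi19, Wiv-1 and LOC543989 in IL-8_1_1. Among them, tXET-B2 and PME2.1 stand for enzymes that remodel xyloglucan and pectin in the cell wall, with gaps of 2.14 and 2.02. Without array 1 of IL-1_1_3 the rule found 10 probe sets in that line in place of 6 (6 of them members). Without array 2 of IL-7_2 it found 9 in IL-1_1_3 and, in IL-7_2, 27 in place of 19 (16 of them members). The order of the lines changed where arrays could overlap, with 37 in IL-7_2, 15 in IL-4_2, 26 in IL-8_1_1 and 23 in IL-1_1_3. IL-8_1_1 also came ahead of IL-4_2 at a gap of 0.5 (20 against 19). The same was seen without array 6 of M82 and without array 4 of IL-8_1_1 (14 against 13 each). In the other runs that left out 1 array, IL-4_2 held as many as IL-8_1_1 or more. The order of IL-4_2 and IL-8_1_1 thus depended on the settings.

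Most gains were moderate. The gap was 2 log2 or more in 9 members, from 1 to under 2 in 20 and under 1 in 20, with a median of 1.12. The distance between the lowest array of the line and the highest of all other arrays had a median of 0.43 and was 1 or more in 8 members, while in 6 members it was under 0.1. The separation of the arrays in those 6 was therefore narrow although their means differed by 0.84 to 1.76. Over the 49 members, SDs had a median of 0.30 within the line of the gain and 0.24 within M82, beside a median of 0.18 within M82 over all unnamed probe sets.

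**Figure D1:**
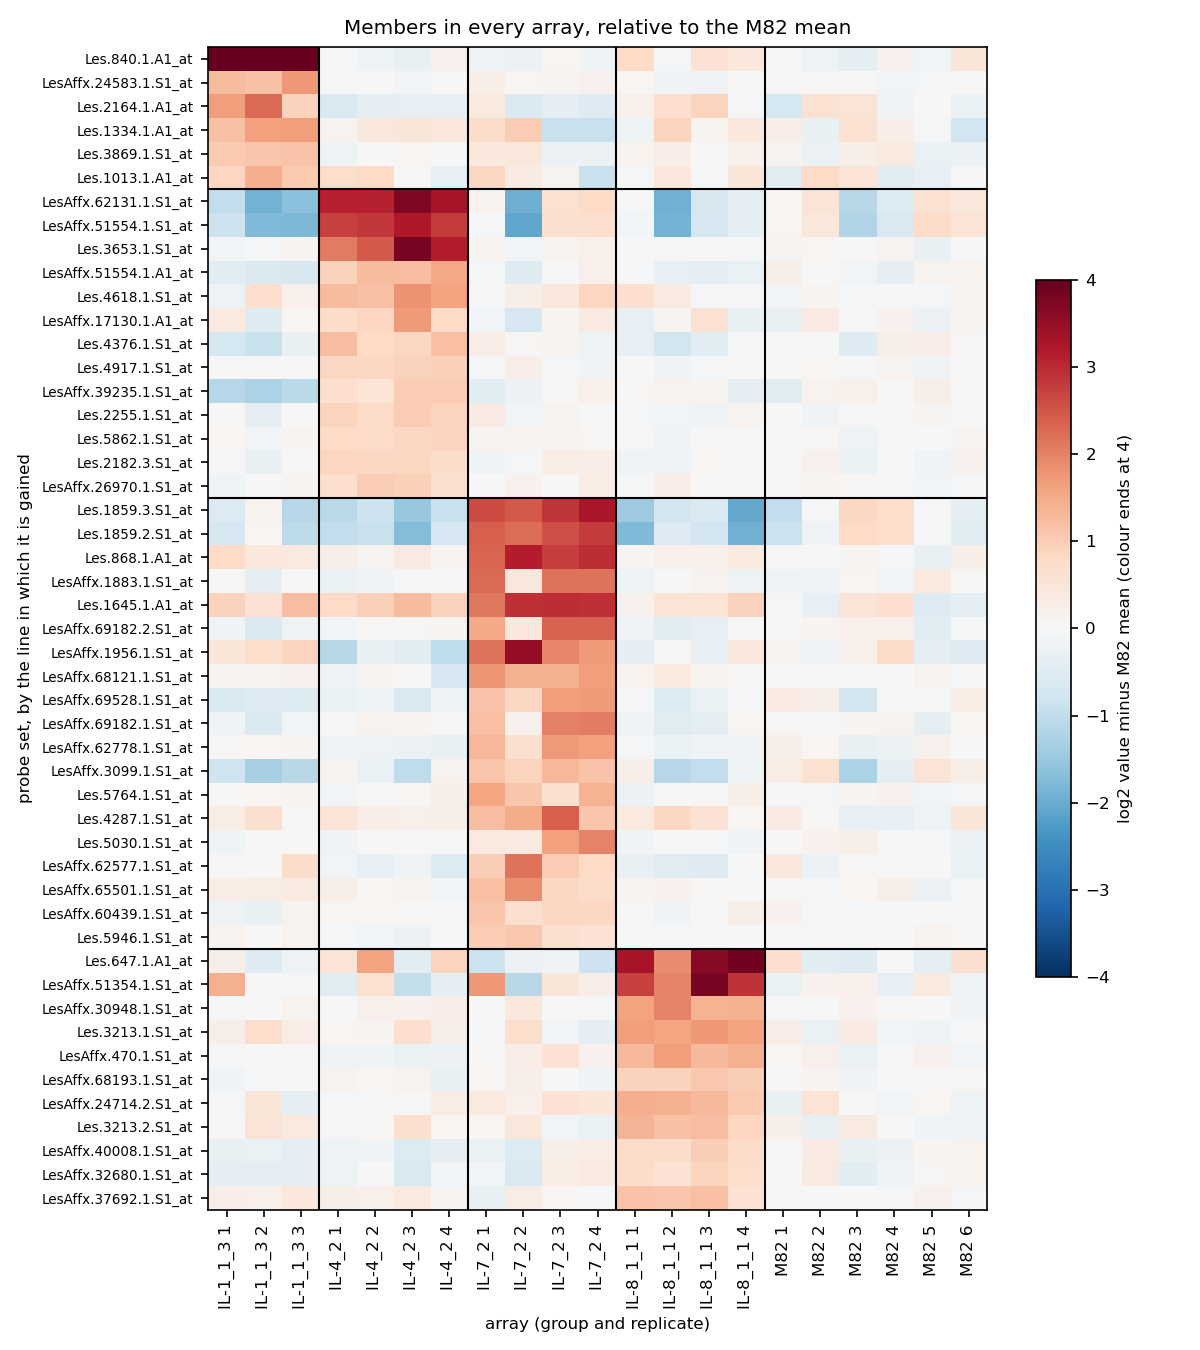
Log2 value minus the M82 mean for the 49 members (rows, grouped by the line of the gain) in 21 arrays (columns, lines first and M82 at the right). Each block of warm colour is the line that chose the members, and the 3 arrays of IL-1_1_3 run past the end of the colour scale for Les.840.1.A1_at.

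Few members had high levels in M82, and the rule itself held M82 below the line of the gain. The quartiles of the M82 means over all 10038 probe sets were 7.20 and 11.08, with a median of 9.55. In M82, 15 members (30.6%) lay below the first quartile, 32 between the quartiles and 2 (4.08%) above the third, beside 24.8% and 24.1% of all unnamed probe sets below the first and above the third. Of the 15 low members, 8 reached the first quartile in their line and 7 stayed below it. Of the 9 members with a gap of 2 log2 or more, 5 were low in M82 and 4 lay between the quartiles. Signal over background is not given, so a low value is a measured value and not a proof of absence.

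**Figure D2:**
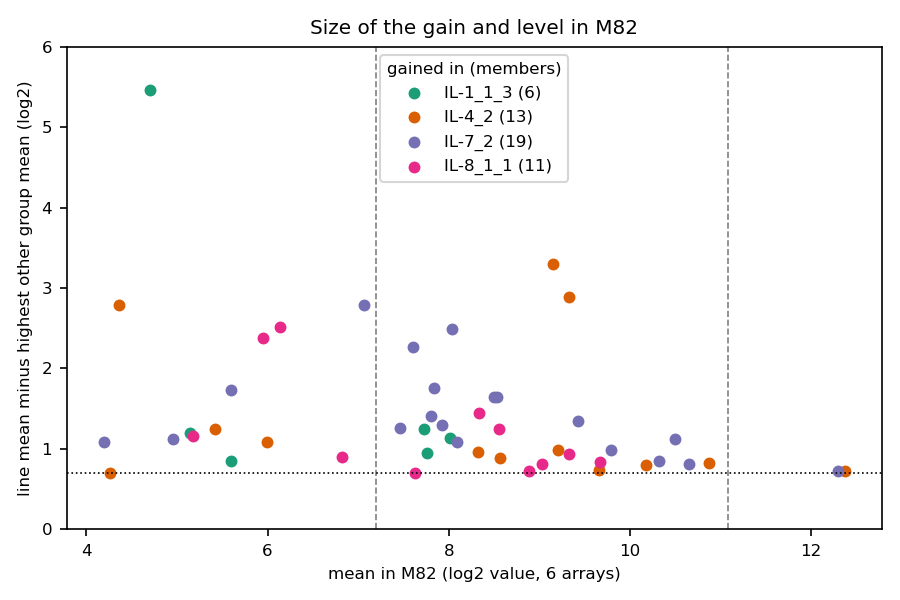
Gap of each member (vertical axis, log2) against its mean in M82 (horizontal axis, log2, 6 arrays), coloured by the line of the gain. The dotted line is the threshold of 0.7 and the dashed lines are the quartiles of the M82 means (7.20 and 11.08), and 1 member, Les.840.1.A1_at, stands far above the rest at 5.47.

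In IL-1_1_3 a single member dominated. Les.840.1.A1_at had 11.63, 9.53 and 10.63 log2 in the 3 arrays of IL-1_1_3, against 4.41 to 5.49 in the other 3 lines and a lowest, median and highest value of 4.35, 4.65 and 5.20 in M82. Its gap of 5.47 was the largest of all members, and its arrays in IL-1_1_3 also differed among themselves by 2.10 log2. All arrays outside IL-1_1_3 lay near the bottom of the scale, and the mean in IL-1_1_3 (10.60) lay above the median level of all probe sets (9.55).

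The other 5 members of IL-1_1_3 had gaps of 0.84 to 1.24. LesAffx.24583.1.S1_at had 8.99, 8.90 and 9.46 in IL-1_1_3, against 7.55 to 7.96 in the other lines and 7.60, 7.76 and 7.77 (lowest, median and highest) in M82, so that all groups but 1 were nearly flat. Les.3869.1.S1_at had 8.82, 8.87 and 8.91 in IL-1_1_3, against 7.50, 7.72 and 8.15 in M82. Both stood clear of all other arrays, by 0.94 and 0.60. The remaining 3 came close to overlap. Les.2164.1.A1_at had 6.82, 7.43 and 6.07 in IL-1_1_3, where its lowest array was 0.03 above the highest array of IL-8_1_1 at 6.04, and Les.1013.1.A1_at had 6.45, 7.07 and 6.65, with 6.44 in an array of IL-7_2. Les.1334.1.A1_at, which also varied within IL-7_2 (7.12 to 9.04), had 9.18, 9.66 and 9.70 in IL-1_1_3.

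In IL-4_2 the largest gains belonged to 2 probe sets of different clusters with similar values. LesAffx.62131.1.S1_at had 12.27, 12.23, 12.88 and 12.45 in IL-4_2, against 7.19 to 9.94 in the other lines and 8.04, 9.41 and 9.77 in M82 (lowest, median and highest). LesAffx.51554.1.S1_at had 12.06, 12.15, 12.52 and 12.13 in IL-4_2, against 7.25 to 9.99 in the other lines and 8.12, 9.59 and 10.08 in M82. Their means in IL-4_2 were 9.87-fold and 7.43-fold above those in M82, which was the next highest group for both.

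Across all 21 arrays the difference between these 2 probe sets stayed between -0.33 and 0.36, which is why they are set side by side. Outside IL-4_2 each still varied, with 7.19 to 9.94 for LesAffx.62131.1.S1_at. The lowest arrays were the same for both: array 2 of IL-7_2 at 7.19 and 7.25, and array 2 of IL-8_1_1 at 7.22 and 7.42. Arrays 2 and 3 of IL-1_1_3 came next, at 7.27 and 7.49 for LesAffx.62131.1.S1_at and at 7.54 each for LesAffx.51554.1.S1_at. Within IL-4_2 the ranges of these 2 probe sets were 0.65 and 0.45. A probe set of opposite orientation on the second cluster, LesAffx.51554.1.A1_at, was a member too, at a much lower level. It had 6.34, 6.70, 6.64 and 6.97 in IL-4_2, against 4.77 to 5.61 in the other lines and 5.03, 5.50 and 5.64 in M82.

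Les.3653.1.S1_at showed the other shape, a flat low level in all groups but IL-4_2. It had 6.45, 6.81, 8.16 and 7.51 in IL-4_2, against 4.24 to 4.56 in the other lines and 4.05, 4.40 and 4.50 in M82. Its gap of 2.79 came with an SD of 0.76 within IL-4_2 and 0.16 within M82. Les.4618.1.S1_at, with 7.25, 7.16, 7.78 and 7.62 in IL-4_2 and 5.90 to 6.11 in M82, and LesAffx.17130.1.A1_at, with 9.93, 10.05, 10.91 and 9.99 in IL-4_2 and 8.90 to 9.54 in M82, had gaps of 1.08 and 0.98.

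Among the smaller gains of IL-4_2, Les.2182.3.S1_at had 13.23, 13.20, 13.21 and 13.12 in IL-4_2, against 12.10 to 12.56 in M82, where it was the member with the highest level. LesAffx.26970.1.S1_at, the lowest of this line in M82 (4.15 to 4.36), had 4.93, 5.28, 5.23 and 4.90 in IL-4_2, and its gap of 0.70 was the smallest of all members. Another 4 members, chosen here after their values were seen, had gaps of 0.73 to 0.96, namely Les.4376.1.S1_at, Les.4917.1.S1_at, Les.2255.1.S1_at and Les.5862.1.S1_at. Les.5862.1.S1_at had an SD of 0.05 within IL-4_2 and 0.11 within M82. Just outside the rule, with all arrays separate but a gap under 0.7, lay LesAffx.62501.1.S1_at and Les.982.1.S1_at (0.59 each).

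IL-7_2 had the most members and the most uneven ones, with a median SD within the line of 0.41, against 0.22 in M82. This unevenness was not particular to the members. Over all probe sets, arrays 1, 2, 3 and 4 of IL-7_2 deviated from their group mean by 0.17, 0.43, 0.27 and 0.25 (mean absolute deviation). The largest gains of IL-7_2 were in 2 probe sets of 1 cluster. Les.1859.3.S1_at had 9.68, 9.52, 9.92 and 10.32 in IL-7_2, against 5.02 to 7.21 in the other lines and 6.07, 6.99 and 7.89 in M82 (lowest, median and highest). Les.1859.2.S1_at had 10.43, 10.26, 10.60 and 10.82 in IL-7_2, against 6.11 to 8.11 in the other lines and 7.19, 7.92 and 8.82 in M82. For both, M82 was second and all 3 other lines had lower means than M82. Over 21 arrays the second exceeded the first by 0.50 to 1.20.

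**Figure D3:**
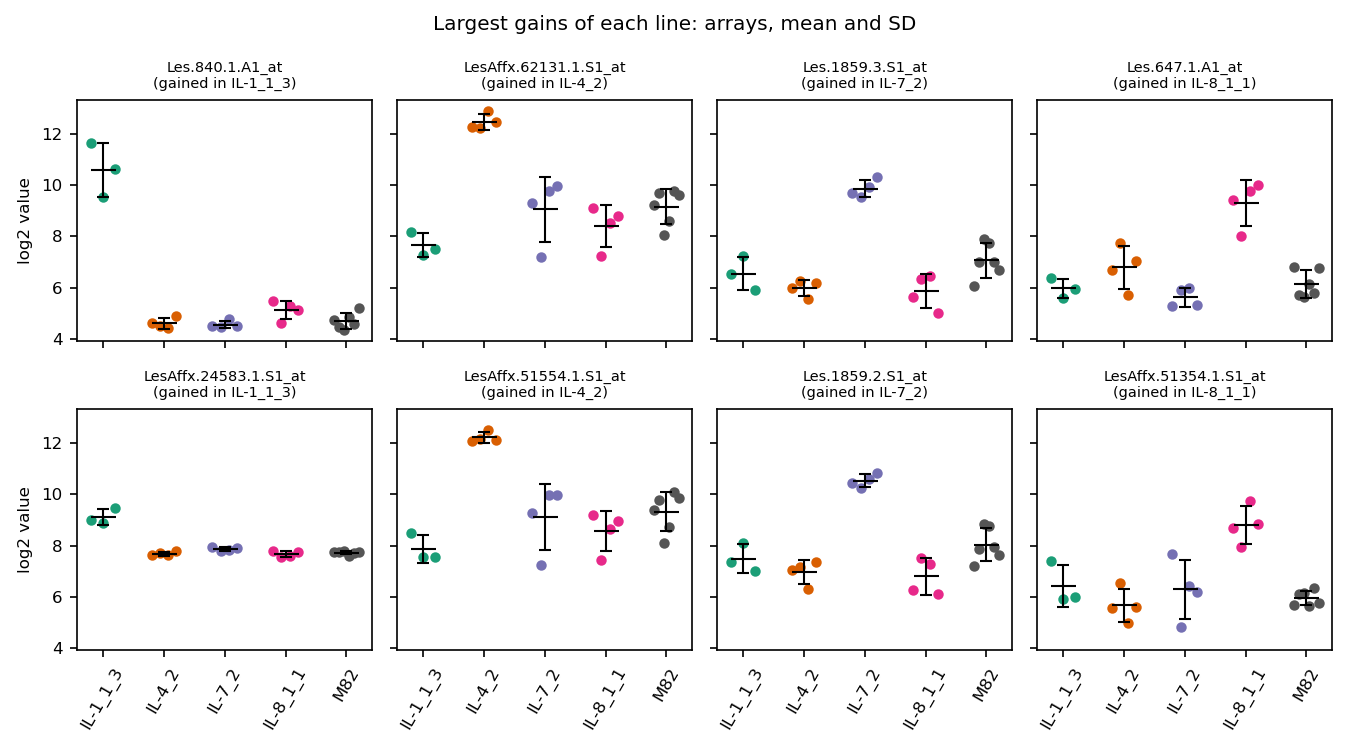
Log2 values of the members with the largest gap in each line (columns of panels), by group, with the lines at the left of each panel and M82 at the right. Points are arrays, and bars are the mean and SD (n = 3 in IL-1_1_3, 4 in the other lines and 6 in M82). Les.840.1.A1_at and LesAffx.24583.1.S1_at are nearly flat outside IL-1_1_3, while the members of IL-4_2 and IL-7_2 shown also vary among the other groups.

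Les.868.1.A1_at had 9.95, 10.73, 10.37 and 10.57 in IL-7_2, against 7.71 to 8.41 in the other lines and 7.31, 7.61 and 7.84 in M82. Its mean was 6.95-fold above M82, and its lowest array stood 1.54 above the highest array of any other group. Les.1645.1.A1_at had 7.72, 8.53, 8.54 and 8.53 in IL-7_2, against 5.77 to 6.88 in the other lines and 5.08, 5.46 and 6.28 in M82. Here M82 was the lowest group, and the other lines lay between it and IL-7_2.

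Array 2 of IL-7_2, which stood apart over all probe sets, was also the lowest of the 4 in 11 of the 19 members and the highest in 5. The matching shares over all probe sets are not given, so these counts are not read as a feature of the members. LesAffx.1883.1.S1_at had 10.10, 8.30, 10.00 and 10.01 in IL-7_2, against 7.63 to 8.22 in M82, so that array 2 lay 0.08 above the highest array of the other groups while the other 3 arrays lay close together. Both probe sets of cluster LesAffx.69182 were low in that array as well, with 10.05, 8.95, 10.90 and 10.89 for LesAffx.69182.2.S1_at and 9.14, 8.09, 9.93 and 9.95 for LesAffx.69182.1.S1_at. In M82 they had 8.09 to 8.74 and 7.54 to 8.05. The opposite was seen in LesAffx.62577.1.S1_at and LesAffx.65501.1.S1_at, chosen after their values were seen, which had 11.97 and 12.19 in array 2 and at most 10.82 and 11.53 in the other arrays of IL-7_2. These 2 no longer met the rule without array 2 of IL-7_2 (gaps of 0.68 and 0.61), nor did Les.5946.1.S1_at, and the other 16 members of the line did.

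A further 7 members of IL-7_2, also named after their values were seen, had gaps of 1.09 to 1.64. LesAffx.1956.1.S1_at had 10.67, 12.02, 10.45 and 10.21 in IL-7_2, against 7.40 to 9.40 in the other lines and 7.98, 8.49 and 9.23 in M82 (lowest, median and highest). LesAffx.68121.1.S1_at was more even, with 9.58, 9.22, 9.24 and 9.49 in IL-7_2, against 7.72, 7.78 and 7.94 in M82. LesAffx.69528.1.S1_at, LesAffx.62778.1.S1_at, LesAffx.3099.1.S1_at, Les.5764.1.S1_at and Les.4287.1.S1_at had gaps of 1.09 to 1.34, and Les.5764.1.S1_at was the only low one among them in M82 (4.84 to 5.11).

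At the ends of the scale, Les.5946.1.S1_at was the highest member of IL-7_2 in M82 and Les.5030.1.S1_at the lowest. Les.5946.1.S1_at had 13.32, 13.37, 12.95 and 12.87 in IL-7_2, against 12.23, 12.26 and 12.43 in M82 (lowest, median and highest), with the smallest gap of the line (0.73). Les.5030.1.S1_at split the arrays of IL-7_2, with 4.57 and 4.55 in arrays 1 and 2 and 5.83 and 6.16 in arrays 3 and 4, against 3.94 to 4.41 in M82. LesAffx.60439.1.S1_at, with 11.75, 11.29, 11.47 and 11.49 in IL-7_2 and 10.57 to 10.83 in M82, had a gap of 0.81. Les.3122.2.A1_a_at and Les.132.1.S1_at lay just outside the rule (gaps of 0.68 each).

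In IL-8_1_1 the pair with the largest gains was low in M82 and uneven within IL-8_1_1. Les.647.1.A1_at had 9.43, 8.02, 9.77 and 9.99 in IL-8_1_1, against 5.27 to 7.74 in the other lines and 5.63, 5.96 and 6.81 in M82 (lowest, median and highest). LesAffx.51354.1.S1_at had 8.69, 7.94, 9.74 and 8.83 in IL-8_1_1, against 4.83 to 7.68 in the other lines and 5.64, 5.94 and 6.34 in M82. Array 2 was the lowest of IL-8_1_1 in both, and they stood 0.28 and 0.26 above the highest other array although their gaps were 2.51 and 2.38.

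The next members were steadier. LesAffx.30948.1.S1_at had 9.94, 10.32, 9.73 and 9.74 in IL-8_1_1, against 8.28 to 8.76 in the other lines and 8.18, 8.34 and 8.51 in M82. Les.3213.1.S1_at had 10.24, 10.13, 10.31 and 10.18 in IL-8_1_1, against 8.31, 8.48 and 8.90 in M82, and Les.3213.2.S1_at of the same cluster had 11.02, 10.83, 10.89 and 10.52, against 9.37, 9.60 and 10.02. The arrays of IL-8_1_1 stood 0.97, 0.86 and 0.22 above the highest other array in these 3 probe sets. LesAffx.470.1.S1_at had 6.48, 6.84, 6.46 and 6.60 in IL-8_1_1, against 4.90 to 5.36 in M82, and LesAffx.68193.1.S1_at had 10.26, 10.23, 10.39 and 10.30, against 9.18 to 9.44. LesAffx.24714.2.S1_at had 8.27, 8.24, 8.11 and 7.88 in IL-8_1_1, against 6.51 to 7.36 in M82.

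Nearest the threshold in IL-8_1_1 were LesAffx.32680.1.S1_at (gap 0.72) and LesAffx.37692.1.S1_at (0.70), and just outside it lay LesAffx.19012.1.S1_at (0.69) and LesAffx.67402.2.S1_at (0.66). With 1 array left out, LesAffx.32680.1.S1_at met the rule in 17 of 21 runs and LesAffx.37692.1.S1_at in 16 of 21. LesAffx.37692.1.S1_at also missed it under quantile normalization and cyclic loess. LesAffx.37692.1.S1_at had 8.78, 8.72, 8.83 and 8.19 in IL-8_1_1, against 7.53, 7.60 and 7.79 in M82. LesAffx.32680.1.S1_at had 9.61, 9.46, 9.77 and 9.59 in IL-8_1_1, against 8.46, 8.91 and 9.24 in M82. LesAffx.40008.1.S1_at, singled out after the values were seen because it ran along with it, had 9.80, 9.77, 10.01 and 9.78 in IL-8_1_1, against 8.73, 9.06 and 9.36 in M82. The difference between them, for which the pair was picked, stayed between -0.11 and 0.31 over the 21 arrays, and their cluster numbers differ. Outside IL-8_1_1, LesAffx.40008.1.S1_at ran over 0.88 log2.

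**Figure D4:**
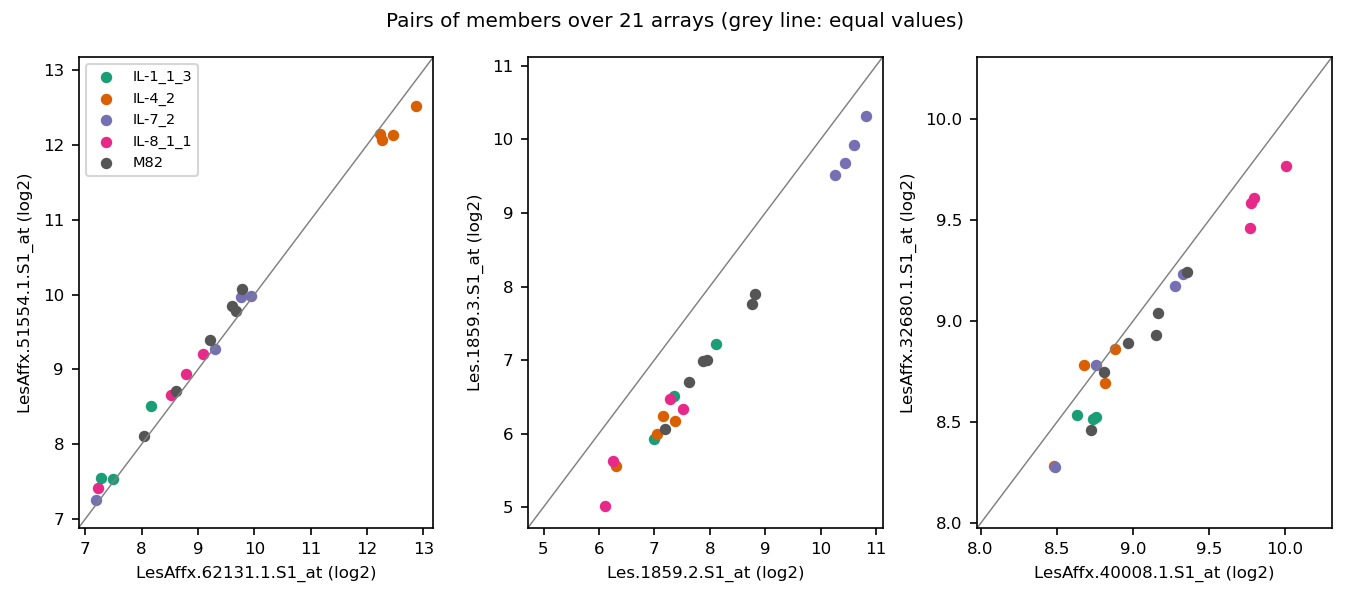
Values of both members of 3 pairs in each of 21 arrays (log2 on both axes, coloured by group), with a grey line where the values are equal. The left pair keeps to the grey line, and in the middle pair Les.1859.2.S1_at is the higher of the 2 in every array, by 0.50 to 1.20.

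The 49 members came from 45 clusters. In 4 clusters (LesAffx.51554, Les.1859, LesAffx.69182 and Les.3213) there were 2 members each, so these 8 probe sets share a source and are not independent of each other. Another 9 clusters held 10 probe sets that were not members. Of these 10, 7 were highest in the same line as the member, by 0.13 to 0.55, and 3 were not. Both further probe sets of cluster Les.2182 had all arrays of IL-4_2 above all other arrays, with means of 13.84 and 12.97 in IL-4_2, against 13.22 and 12.30 in M82, and gaps of 0.55 and 0.54. The partner of Les.5946.1.S1_at went the other way, with 3.87 in IL-7_2 and 4.20 in M82 (gap -0.68), and that of LesAffx.24714.2.S1_at had 10.34 in IL-8_1_1 and 10.59 in M82. Of the 10 probe sets, 6 were below the first quartile in M82.

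The IDs also differ in features that the rule did not use. LesAffx clusters gave 26 of 49 members (53.1%), beside 45.2% of all unnamed probe sets, and the share differed among lines, with 8 of 11 in IL-8_1_1, 11 of 19 in IL-7_2, 6 of 13 in IL-4_2 and 1 of 6 in IL-1_1_3. The letter A was found in 9 of 49 members (18.4%), beside 25.1% of all unnamed probe sets, and 4 of these 9 were in IL-1_1_3. All 49 IDs end in the plain suffix at, as 97.9% of the unnamed probe sets do.

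For the table as a whole, 0.941% of the 10101 probe sets in the fit were called higher than M82 in IL-1_1_3, 0.881% in IL-4_2, 1.7% in IL-7_2 and 0.624% in IL-8_1_1 (limma, Benjamini-Hochberg adjusted p under 0.05). The members' own calls are not given, since the rule used the same contrast.

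The members were also compared with M82 in the 3 lines that did not gain them. The rule held all these groups below the line of the gain and did not ask them to differ from M82, and the fit takes its spread from all arrays, those of the gain included. The 3 comparisons share the M82 arrays. Of 147 such contrasts, 2 passed (limma, adjusted p under 0.05, 1.36%), beside 2.02% over all probe sets and the 4 lines, and 13.6% had an unadjusted p under 0.05, beside 13.3%. LesAffx.39235.1.S1_at, gained in IL-4_2, was lower in IL-1_1_3, with 9.72, 9.60 and 9.79 there and 10.37, 10.92 and 11.09 in M82 (lowest, median and highest). Its log2 change was -1.16 ± 0.17 (SE, limma adjusted p = 0.000652), lower in 3 of 3 arrays, so that this probe set had its highest level in 1 line (11.56, 11.41, 11.90 and 11.90 in IL-4_2) and its lowest in another.

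The second call was Les.1645.1.A1_at, gained in IL-7_2 and higher in IL-4_2 than in M82. It had 6.41, 6.56, 6.88 and 6.52 in IL-4_2, against 5.08, 5.46 and 6.28 in M82, with a log2 change of 0.99 ± 0.24 (SE, limma adjusted p = 0.0359) and 4 of 4 arrays above all M82 arrays. Its changes in IL-1_1_3 (0.92, adjusted p = 0.0694) and IL-8_1_1 (0.55, adjusted p = 0.627) had the same sign and did not pass. The call in IL-4_2 was lost in 8 of 21 fits that left out 1 array (adjusted p up to 0.168), with M82 arrays 1, 2, 5 and 6 and each of the 4 arrays of IL-4_2, and once replicate number entered as a block (adjusted p = 0.0831). It was also lost with IL-4_2 and M82 fitted alone (adjusted p = 0.0817). The count of 2 became 1 without M82 array 2, 5 or 6 or any 1 array of IL-4_2, 8 without M82 array 3, 4 without M82 array 4, 4 without IL-7_2 array 1 and 7 without IL-7_2 array 2. Without 3 arrays at once (array 3 of M82, array 3 of IL-4_2, array 2 of IL-7_2), a choice made after seeing the data, the count became 12. The call of Les.1645.1.A1_at in IL-4_2 was then lost (limma adjusted p = 0.0613), and 41 of the 49 members still met the rule. Each of these 3 arrays deviated most within its own group. Array 2 of IL-8_1_1 was kept, although its mean absolute deviation (0.216) was larger than that of array 3 of IL-4_2 (0.184).

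**Figure D5:**
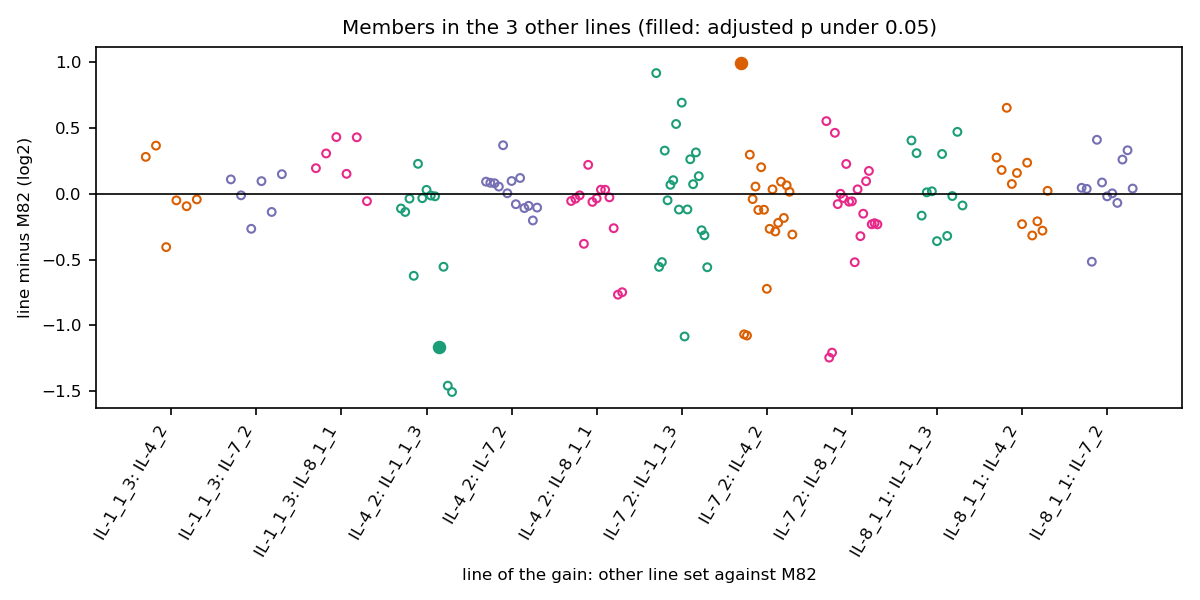
Log2 difference from M82 of each member in the 3 lines other than the line of its gain, with 1 column of points for each line of the gain and other line. Filled points are the 2 contrasts with an adjusted p under 0.05 (LesAffx.39235.1.S1_at at -1.16 and Les.1645.1.A1_at at 0.99), and open points did not pass.

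The means of the 4 groups outside the gain lay within 0.5 log2 of each other in 32 members and 1 or more apart in 8. The matching shares over all unnamed probe sets are not given, so these counts are not read as a feature of the members. Among those 8, LesAffx.39235.1.S1_at alone had differences from M82 and between the other lines that passed the test. In the rest no such difference passed. For example, LesAffx.62131.1.S1_at had 8.17, 7.27 and 7.49 in IL-1_1_3, against a median of 9.41 in M82 (log2 change -1.51 ± 0.53, limma adjusted p = 0.124), and Les.1859.2.S1_at had 6.26, 7.53, 7.28 and 6.11 in IL-8_1_1, against a median of 7.92 in M82 (-1.24 ± 0.34, adjusted p = 0.106). M82 was the second highest group in 12 members and the lowest in 12. Lines other than that of the gain differed from each other in 3 of 147 contrasts (limma, adjusted p under 0.05, 2.04%), beside 3.02% over all probe sets and pairs of lines.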

How the data were processed

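Anther RNA was measured on 21 Affymetrix tomato arrays in 5 groups. The deposited table holds log2 values per probe set, and the labels name the tool affy, per the submitters' processing notes. Its version and settings were not given in those sources. The values were used as deposited, with no further scaling and no pseudocount. Of 10209 probe sets, 108 AFFX controls were left out of the fit and 63 RPTR reporters also of the member rule. Groups were compared with limma 3.58.1 (R 4.3.3) in 1 model with 16 residual degrees of freedom over 10101 probe sets, with Benjamini-Hochberg adjustment within each comparison and a threshold of 0.05. The fit was tested on simulated data.

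The members and lists were chosen with earlier results of these data known. In each line, members were named by rule: the 6 largest gaps, the highest and lowest in M82, the 2 nearest the threshold, members called in another line, and up to 4 with a cluster partner. This named 35 of 49. Of the marker lists, 5 of 15 pollen and 3 of 14 green tissue symbols were measured, and no tapetum symbol was. Arrays have no read depth, so their number limits the precision. Alternatives were other scalings, thresholds, subsets of probe sets, a replicate block and leaving out each array. Pairs of members of 1 line were set side by side where they shared a cluster, or where the range of their difference over arrays was under 0.3 of the smaller range of the 2, a rule chosen after seeing the data.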

Additional observations from a re-analysis of the deposited data

Results flagged for a closer look

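In 14 of 196 groups of 4 or 6 arrays, 1 array of a member was flagged by Dixon's criterion, where chance gives about 9.8. The criterion sets the distance to the nearest array against the range of the group, so a flagged array can be close in log2. For Les.5030.1.S1_at in IL-4_2, the flagged value was 4.05 and the nearest 4.17. In the line of the gain, LesAffx.17130.1.A1_at had 10.91 in IL-4_2 array 3, LesAffx.1883.1.S1_at had 8.30 and LesAffx.62577.1.S1_at had 11.97 in IL-7_2 array 2, Les.1645.1.A1_at had 7.72 in IL-7_2 array 1, and LesAffx.40008.1.S1_at had 10.01 in IL-8_1_1 array 3. In other lines, Les.2164.1.A1_at had 4.53 and Les.5030.1.S1_at had 4.05 in IL-4_2 array 1, Les.3213.2.S1_at had 10.29 in IL-4_2 array 3, LesAffx.68193.1.S1_at had 9.03 in IL-4_2 array 4, and LesAffx.30948.1.S1_at had 8.76 in IL-7_2 array 2. In M82, LesAffx.39235.1.S1_at had 10.37 in array 1, LesAffx.69528.1.S1_at had 8.69 in array 3, and Les.3653.1.S1_at and LesAffx.69182.1.S1_at had 4.05 and 7.54 in array 5.

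Lines other than that of the gain differed from each other in 3 of 147 contrasts (2.04%, beside 3.02% over all probe sets; limma, adjusted p under 0.05). LesAffx.39235.1.S1_at was lower in IL-1_1_3 (mean 9.70) than in IL-8_1_1 (10.84), by a log2 difference of -1.14 (limma adjusted p = 0.000962), and than in IL-7_2 (10.76), by -1.06 (limma adjusted p = 0.0017), with 3 of 3 arrays of IL-1_1_3 lower. LesAffx.470.1.S1_at was lower in IL-4_2 (mean 4.96) than in IL-7_2 (5.43), by -0.47 (limma adjusted p = 0.0212).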

How the results depend on the processing

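Gaps were recomputed under both scalings, without each array in turn and without 3 arrays at once, and none changed sign. The members had been chosen for a gap of at least 0.7 in the same values, so a change of sign was unlikely from the start. In all 21 runs of the rule without 1 array, 41 of 49 members met it, and 8 missed it in some runs. These 8 were Les.1013.1.A1_at in IL-1_1_3, Les.2182.3.S1_at and LesAffx.26970.1.S1_at in IL-4_2, and LesAffx.32680.1.S1_at and LesAffx.37692.1.S1_at in IL-8_1_1. The rest were Les.5946.1.S1_at, LesAffx.62577.1.S1_at and LesAffx.65501.1.S1_at in IL-7_2. Cyclic loess kept 45 and quantile normalization 48. The counts of gained probe sets ran from 5 to 10 in IL-1_1_3, 11 to 14 in IL-4_2, 19 to 27 in IL-7_2 and 10 to 14 in IL-8_1_1 with 1 array left out. Where arrays could overlap they were 23 in IL-1_1_3, 15 in IL-4_2, 37 in IL-7_2 and 26 in IL-8_1_1, so that IL-4_2 then had the fewest. A gap of 1 gave 5 in IL-4_2 and 5 in IL-8_1_1, a gap of 0.5 gave 20 in IL-8_1_1, and leaving out the dimmest 25% gave 3 in IL-1_1_3. Among probe sets with a symbol the counts were 0, 1, 5 and 3, and the mirrored rule gave 28, 49, 44 and 36, in the order IL-1_1_3, IL-4_2, IL-7_2 and IL-8_1_1. Rises against M82 over all probe sets (limma) numbered 95, 89, 172 and 63 in that order, and 15 to 361, 45 to 187, 115 to 222 and 49 to 75 with 1 array left out. At an adjusted p of 0.01 they were 12 in IL-1_1_3, 39 in IL-4_2 and 71 in IL-7_2. Cyclic loess gave 58 in IL-1_1_3 and 94 in IL-7_2, and each line with M82 alone gave 49 and 42 there. Without array 3 of M82, array 3 of IL-4_2 and array 2 of IL-7_2 together, an alternative chosen after seeing the data, IL-1_1_3 had 890 and IL-8_1_1 had 108. Replicate number entered as a block gave rises of 8, 29, 60 and 32. Same-numbered arrays had deviations that correlated between -0.81 and 0.70, over 0.1 in 13 of 36 pairs. Arrays with different numbers were not set beside them, so these values cannot decide whether the numbers pair the samples. The main fit did not use the numbers. Members called in another line numbered 2, and 1 at an adjusted p of 0.01, 1 without the dimmest 25%, 1 with each line and M82 alone, 1 with the replicate block, 12 without these 3 arrays, and 1 to 8 with 1 array left out. The cause of these shifts was not tested.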
